A study of Hydra viridissima with 2 samples.

Results

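Twin-peak start clusters are short stretches of the green hydra (Hydra viridissima) genome in which the capped 5′ ends of RNA pile up at a pair of separate bases. To find them, 5′ tags of both libraries were pooled by scaffold, base and strand, and positions with at most 20 bases between them were joined on each strand. A cluster was kept when it had at least 100 pooled tags, lay below 500 pooled CPM (tag counts scaled to the same total in each library), and spanned 11 to 100 bases between the 10th and 90th percentiles of its tags. Its strongest position over 20 bases away from the top base also had to hold at least 0.5 of the top base's tags. The top base is called the stronger peak and this other position the weaker peak. The clusters were thus chosen by pooled tag counts, and the rule kept 566 of the 54909 that held at least 5 pooled tags.

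The study compared whole aposymbiotic animals, which lack the green alga that lives in the inner cell layer of this species, with whole green (symbiotic) animals, both of clone 2. How the aposymbiotic animals lost the alga is not given in the labels. Each group was a single library, made from a pool of about 200 large polyps kept at 24 °C and fed brine shrimp, with an RNA integrity number of 10. Tags came from CAGE, in which caps are removed, a biotinylated dinucleotide is ligated to the freed 5′ ends, and the captured products are sequenced. Since a group had 1 library made from pooled animals of 1 clone, no p-value is given, and a difference below is one between 2 libraries, which cannot be told apart from one between culture pools.

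RNA polymerase II can start a transcript at a single base or over a stretch of bases. In animals studied in detail, focused starts are often linked to a TATA box or a strong initiator, and dispersed starts to promoters without a TATA box. Where 1 promoter holds a pair of preferred bases, the transcripts share most of their sequence and differ in the length of the 5′ leader, which can carry translation signals. In cnidarians including Hydra, many messenger RNAs also receive a spliced leader in trans, which replaces the original 5′ end. No genome sequence or gene models were used here, so neither the sequence at the peaks nor their genes are given, no marker gene was checked, and a peak means a base with many 5′ tags.

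The aposymbiotic library held 2138180 tags and the symbiotic library 3926689. Thus 1 aposymbiotic tag equalled 0.468 CPM, and 1 symbiotic tag equalled 0.255 CPM. The symbiotic library supplied 64.7% of the pooled tags and therefore weighed more in the choice of clusters. Of 2664 clusters with at least 100 pooled tags, 2427 lay below 500 CPM and 1465 of those met the width limits. In 1441 of these a position over 20 bases from the top base existed, so the 566 clusters were compared with the other 875. Twin-peak clusters held 72881 aposymbiotic tags, 3.41% of that library, and 123312 symbiotic tags, 3.14% of that library. Within them only 5 aposymbiotic and 11 symbiotic tags lay on the other strand.

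The pooled tags that chose the clusters describe their shape, and nothing is tested with them. The distance between the peaks had a median of 41 bases, with the middle 50% of clusters between 30 and 58 bases and a range of 21 to 99. Close peaks were most frequent. There were 158 clusters with a spacing of 21 to 30 bases, 120 at 31 to 40, 96 at 41 to 50, 62 at 51 to 60, 53 at 61 to 70, 43 at 71 to 80 and 34 above that. The spacing had a lower limit in the rule and an upper one in the width bound. The stronger peak was the upstream one in 288 clusters, 50.9% (exact 95% interval 46.7 to 55.1), and in the other 875 clusters the top base was upstream of the strongest distant base in 48.9% (45.6 to 52.3). At a spacing of 21 to 30 bases it was upstream in 53.8% (45.7 to 61.8), so the interval includes an even split. With both libraries at equal weight in the choice of clusters, the stronger peak was upstream in 49.3%.

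**Figure D1:**
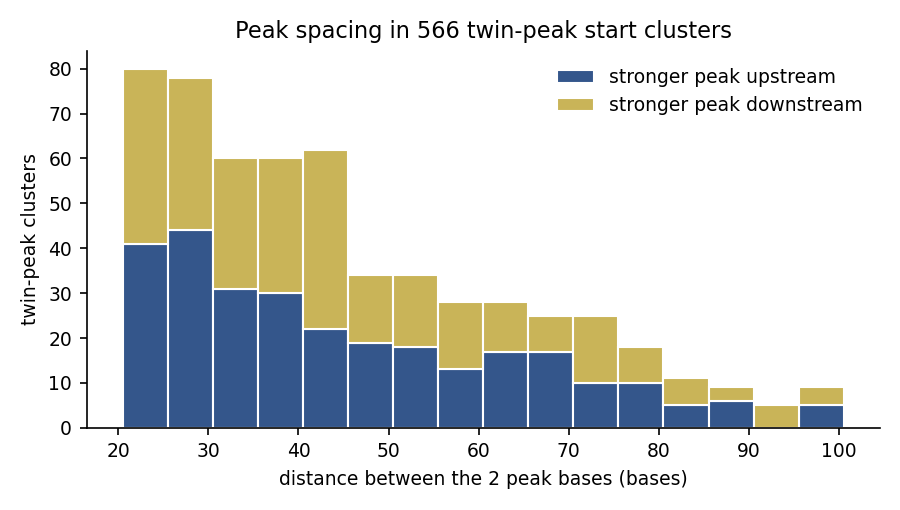
Number of twin-peak clusters (y axis) by the distance in bases between the stronger and the weaker peak (x axis, bins of 5 bases), split by whether the stronger peak lies upstream. Counts fall from short to long spacing, and the stronger peak is upstream in 288 of 566 clusters.

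Most of these clusters had 2 main starts. When bases with at least 0.5 of the top base's tags were taken from the strongest down, each over 20 bases from those taken before, 465 clusters had 2 such starts, 94 had 3 and 7 had 4. At single-base resolution the picture was less simple. Exactly 2 bases reached that level in 160 clusters (28.3%), while 171 had 3, 115 had 4 and 120 had 5 or more. In the other 875 clusters exactly 2 bases reached it in 27.5%, but these shares count unlike things. The rule gives each twin-peak cluster 2 such bases over 20 apart. In the other clusters any second such base lay within 20 bases of the top base. The weaker peak held 0.5 to 0.6 of the stronger peak's tags in 129 clusters and at least 0.9 in 101, of which 10 were equal. Both peaks with 2 bases on each side held a median of 52.1% of a cluster's tags, from 17.6% to 93.0%. The bases between these windows held a median of 18.4% and those outside them 26.4%. In the other 875 clusters the same windows held a median of 61.6%. The 10th to 90th percentile width had a median of 69 bases in the twin-peak and 49 bases in the other clusters.

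Averaged over the 566 clusters and aligned on the chosen bases, both peaks were narrow in both libraries, although single clusters could have neighbours as strong as the peak. The upstream peak base held 15.4% of a cluster's aposymbiotic tags and 15.2% of its symbiotic tags, and the downstream peak base 15.6% and 15.0%. The base just before the upstream peak held 3.94% and 4.02%, and the base just after it 2.85% and 3.05%. Around the downstream peak the base before held 3.96% and 3.77%, and the base after 2.88% and 2.77%. At 5 bases from either peak the mean share was between 0.31% and 0.44% in both libraries. The height of the central spike was used by the rule. Its breadth had no limit of its own in the rule, but each peak was chosen as a strongest base. Neighbouring bases were therefore mostly bound to be lower, and the narrow mean profile is partly set by that choice. How much of it is set in this way was not tested.

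**Figure D2:**
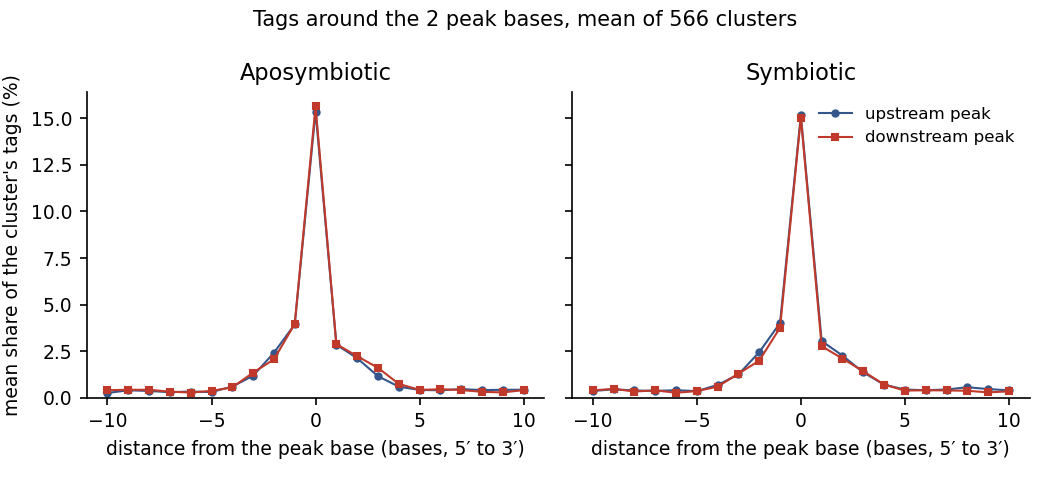
Mean share of a cluster's tags (y axis, percent) at each base from 10 before to 10 after the upstream and the downstream peak (x axis), over 566 clusters, for the aposymbiotic library on the left and the symbiotic library on the right. Shares drop from about 15% at the peak base to about 4% at the base before it, and the curves of both libraries have the same form.

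At the threshold, values just inside and just outside were close. Just inside, the cluster on scaffold_12 from base 2026316 to 2026428, plus strand, had 11 and 4 aposymbiotic tags and 11 and 7 symbiotic tags at its stronger and weaker peak. The clusters on scaffold_11 from 2995423 to 2995529 and on scaffold_1 from 9077248 to 9077349, both on the minus strand, also had a ratio of exactly 0.5. Just outside, the cluster on scaffold_6 from 7631259 to 7631303, plus strand, had 160 and 71 aposymbiotic tags and 217 and 117 symbiotic tags, a pooled ratio of 0.499. A pooled ratio of 0.497 kept out the cluster on scaffold_9 from 16220745 to 16220877, and 0.495 the one on the same scaffold from 14606531 to 14606608.

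The 5 twin-peak clusters with the most tags show the kinds of profile behind the rule. On scaffold_12 from 11796700 to 11796834, minus strand, the peaks were 45 bases apart and nearly equal. The upstream base had 166 aposymbiotic and 351 symbiotic tags, and the downstream base had 155 and 349. A smaller start 34 bases further upstream had 70 and 137 tags. This cluster was the strongest of 4 in its neighbourhood and the one nearest the 3′ end, and its profile was almost the same in both libraries. On scaffold_14 from 6342562 to 6342653, plus strand, the upstream base had 127 aposymbiotic and 244 symbiotic tags and the downstream base, 31 bases away, had 103 and 279. A further start, 55 bases from the upstream base, had 52 and 173 tags. The order of these peaks was thus opposite in the libraries, but the weaker pooled peak, here the upstream base, took 55.2% (48.5 to 61.8) of the aposymbiotic and 46.7% (42.3 to 51.03) of the symbiotic tags at both peaks, and these intervals overlap.

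In the remaining 3 of those clusters the same base led in both libraries. On scaffold_2 from 19480159 to 19480276, minus strand, the downstream base had 187 aposymbiotic and 288 symbiotic tags and the upstream base, 34 bases away, had 103 and 204. A base 10 further downstream was also strong, with 152 and 216 tags. On scaffold_2 from 23460380 to 23460452, plus strand, the downstream base had 125 and 215 tags and the upstream base, 30 bases away, had 62 and 176. The cluster with the most tags of all, on scaffold_5 from 12121757 to 12121812, minus strand, was the least distinct. Its top base had 134 and 218 tags and its downstream peak 54 and 127, but the base just before the top base had 133 and 164, and 7 bases reached at least 0.5 of the top. In all 3 the weaker peak took a smaller share in the aposymbiotic library. In the order given, the differences were -5.95, -11.9 and -8.09 percentage points. The second was -6.50 points when each peak was taken with 2 bases on each side, and the last was -3.92 points with the symbiotic library thinned to the aposymbiotic total.

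At the extremes of spacing, the widest pair lay on scaffold_9 from 9219041 to 9219167, plus strand, with peaks 99 bases apart that had 7 and 5 aposymbiotic and 16 and 10 symbiotic tags at the stronger and the weaker base. Clusters on scaffold_8 from 10465987 to 10466091 and on scaffold_1 from 10106575 to 10106691, both on the minus strand, had peaks 98 bases apart. The narrowest spacing of 21 bases was reached with the most tags on scaffold_24 from 256289 to 256435, minus strand, where the upstream base had 25 aposymbiotic and 76 symbiotic tags and the downstream base 20 and 69. Others at 21 bases lay on scaffold_9 from 6214537 to 6214681 and on scaffold_15 from 1750879 to 1750947, both on the plus strand. None of these 6 changed the order of its peaks between the libraries.

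**Figure D3:**
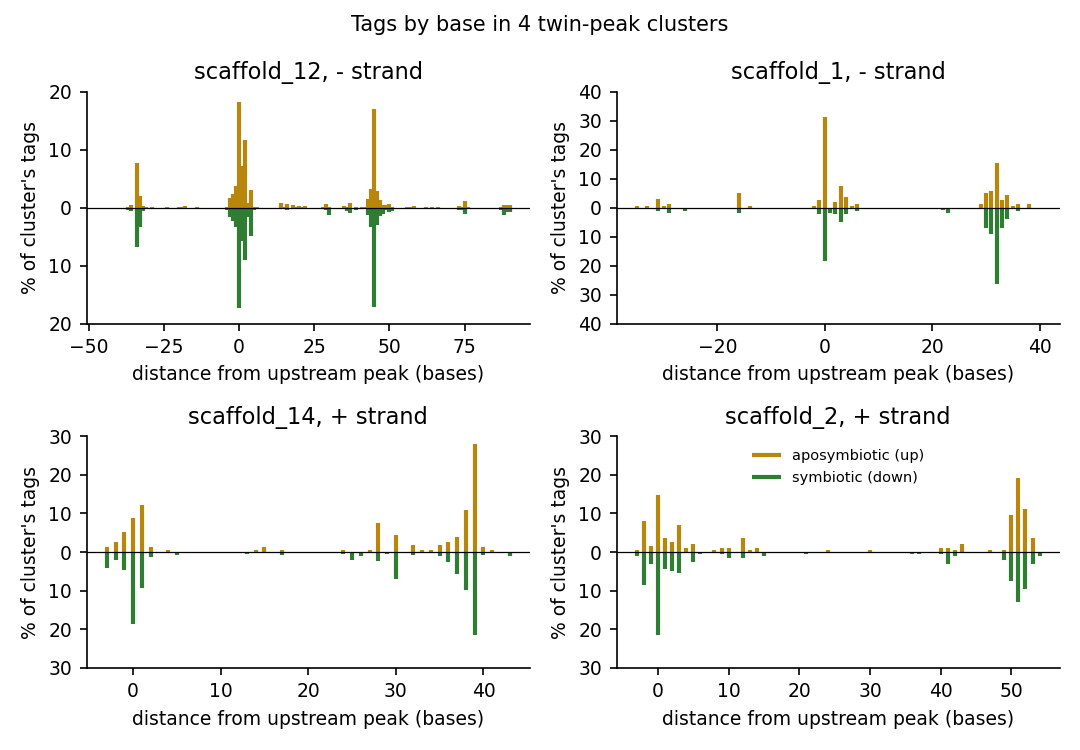
Share of a cluster's tags (y axis, percent; aposymbiotic drawn upward, symbiotic downward) by distance in bases from the upstream peak (x axis) in 4 named clusters: the balanced pair on scaffold_12, the pair on scaffold_1 starting at base 36099316, the pair on scaffold_14 starting at base 1587536 and the pair on scaffold_2 starting at base 808793. The scaffold_12 profile mirrors itself across the axis, while the leading base differs between the libraries on scaffold_1 and scaffold_2.

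The comparison the rule was made for asks whether aposymbiotic and symbiotic animals used the 2 peaks in the same proportion. The measure is the share of the weaker pooled peak among the tags at both peak bases, which is near 50% for an even pair. It was computed for the 287 twin-peak clusters that had at least 20 tags at both peaks together in each library. The other 279 had too few tags for such a share. They enter the share counts below only where all 566 clusters, wider windows or a lower tag limit are named. Even among the 287, the median cluster had 35 aposymbiotic and 61 symbiotic tags at its peaks, so most single shares have intervals of over 20 points. Intervals are exact Clopper-Pearson intervals. For a share of tags they cover counting error and nothing else, and reads from amplified libraries are not separate molecules. For a share of clusters they treat the clusters as separate draws, although all come from the same 2 libraries and some are close neighbours.

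Both peaks were used in both libraries, which the rule largely sets by asking for a balanced pair in the pooled tags. The weaker peak's median share was 41.2% (aposymbiotic) and 41.7% (symbiotic), and the median difference within a cluster, aposymbiotic minus symbiotic, was -0.53 points. Neither peak was at 0 tags in either library in any of the 287 clusters. Over all 566, a peak was at 0 tags in 6 clusters in the aposymbiotic library, where the fewest tags at both peaks were 2, and in 0 clusters in the symbiotic library. Summed over all 566, weaker peaks took 9008 of 21784 aposymbiotic peak tags, 41.4% (40.7 to 42.0), and 15325 of 36463 symbiotic peak tags, 42.0% (41.5 to 42.5). The lower base of the pair held at least 0.5 of the higher one's tags in 232 of the 287 clusters (80.8%) in the aposymbiotic library and in 261 (90.9%) in the symbiotic library. The rule used the pooled tags, to which the symbiotic library gave more. It kept only pairs whose pooled weaker peak held at least 0.5 of the stronger one's tags. The height of the shares in this paragraph therefore largely restates the choice of clusters.

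A difference of at least 20 points was called by size. Of the 287 clusters, 40 differed by that much (13.9%, interval 10.1 to 18.5), against 7.42% of all 836 clusters within the same bounds and with the same 20 tags, and 4.01% of the 549 without twin peaks. In 18 the weaker peak's share was higher in the aposymbiotic library and in 22 it was lower. The corresponding shares of all 836 clusters were 3.47% higher and 3.95% lower. Among the 98 clusters with at least 50 peak tags in each library, 0 were higher and 7 lower. With 2 bases on each side of a peak counted in, which let 467 clusters be read, 29 were higher and 23 lower. At single bases a limit of 30 points gave 5 higher and 3 lower. The balance between directions thus turned with the setting, and the settings did not all read the same clusters. In the 186 clusters just under the rule, with a weaker peak at 0.3 to 0.5 of the top, 11 (5.91%) differed by at least 20 points, a group chosen after the data were seen. No test of the difference between these sets was made. The rule sets the weaker peak's share nearer 50% in the twin-peak clusters. Its medians were 41.2% (aposymbiotic) and 41.7% (symbiotic), against 17.4% and 17.8% in the 549 without twin peaks. Counting scatter of a share is larger nearer 50%, so the percentages above are not compared on equal terms.

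**Figure D4:**
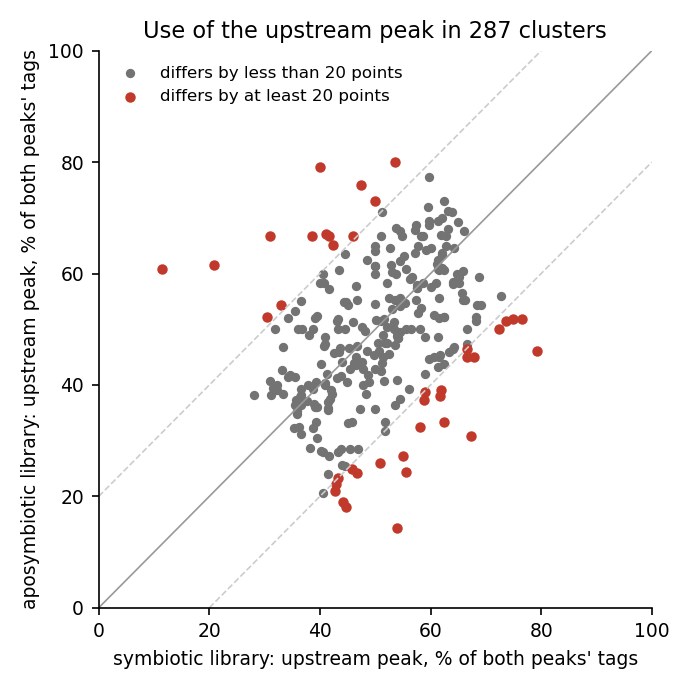
Share of the upstream peak among the tags at both peaks (percent) in the aposymbiotic library (y axis) and the symbiotic library (x axis) for 287 twin-peak clusters, 1 point each, with the line of equality and dashed lines at 20 points. Most points lie between the dashed lines, and 40 lie on or outside them, 14 above and 26 below.

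Differences were larger in clusters with fewer tags. In the 189 clusters whose library with fewer peak tags had 20 to 49, the median absolute difference was 10.3 points and 33 clusters reached 20 points. In the 54 clusters with 50 to 99 it was 7.78 points and 7 reached 20. In the 44 clusters with at least 100 it was 4.49 points, 0 reached 20 and the largest was 18.9. In the whole set, 7 of the 287 clusters had intervals that did not overlap between the libraries (2.44%, interval 0.986 to 4.96), near the 1.79% of all 836 clusters and the 1.46% of those without twin peaks.

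The stronger of the 2 bases was the same in both libraries in 183 of the 287 clusters (63.8%), the opposite in 83 (28.9%) and tied in at least 1 library in 21. The opposite order was seen in 9.93% of all 836 clusters and in 0.0% of the 549 without twin peaks. The rule largely sets that contrast, since the other clusters have a weaker peak under 0.5 of the top. The opposite order was found in 31.2% of the clusters with 20 to 49 peak tags. In the 54 clusters with at least 50 but under 100 peak tags it was found in 31.5% (19.5 to 45.6). With at least 100 it was found in 15.9% (6.64 to 30.1). The share was thus lower only in the range with the most tags, and the last 2 intervals overlap. Only 6 of the 83 also had intervals that did not overlap. Each library's own top base gave a like picture. In the same 287 clusters the top base was shared by the libraries in 178 (62.0%), and it lay over 20 bases away in 90 (31.4%). Over all 566 clusters, including those with few peak tags, it was shared in 262 (46.3%) and lay over 20 bases away in 210 (37.1%). Among the 98 clusters with at least 50 peak tags in each library the top base was shared in 69 (70.4%).

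**Figure D5:**
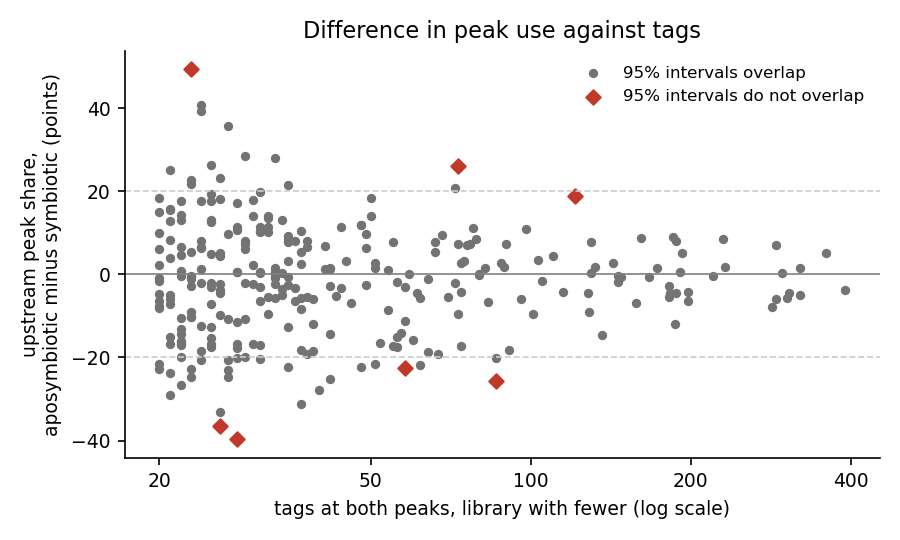
Difference in the upstream peak's share, aposymbiotic minus symbiotic (y axis, percentage points), against the tags at both peaks in the library with fewer of them (x axis, log scale) for 287 twin-peak clusters. The scatter narrows with tags, and the 7 diamonds mark the clusters whose 95% intervals do not overlap.

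Among those 98 clusters, the 6 with the lowest weaker-peak share in the aposymbiotic relative to the symbiotic library differed by 20.7 to 26.0 points. Tags per base are raw counts here, and the symbiotic library is the deeper one, so levels are also given in CPM where they bear on the pair. On scaffold_1 from 36099316 to 36099391, minus strand, the upstream base had 49 aposymbiotic and 51 symbiotic tags, and the downstream base, 32 bases away, had 24 and 73. The downstream share was 32.9% (22.3 to 44.9) of the aposymbiotic peak tags and 58.9% (49.7 to 67.6) of the symbiotic ones, and the symbiotic interval includes an even split. In CPM the upstream base had 22.9 and 13.0 and the downstream base 11.2 and 18.6. The level of the whole cluster was 73.0 and 70.8 CPM, 1.03-fold (0.842 to 1.26). The bases on either side of the downstream peak had 9 and 25 tags before it and 4 and 19 after it.

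On scaffold_1 from 14894777 to 14895048, minus strand, both bases were higher in CPM in the aposymbiotic library. The downstream base had 108 aposymbiotic and 36 symbiotic tags, or 50.5 and 9.17 CPM, and the upstream base, 80 bases away, had 52 and 50 tags, or 24.3 and 12.7 CPM. The whole cluster had 377.4 and 217.7 CPM, 1.73-fold higher (1.57 to 1.91). The upstream share was 32.5% (25.3 to 40.3) in aposymbiotic animals and 58.1% (47.0 to 68.7) in symbiotic animals. The difference of -25.6 points was -11.7 points in 1 thinning of the symbiotic tags to the aposymbiotic total. Around the upstream base lay many bases of similar height, and the 2 peaks with their neighbours held 31.9% of the tags. The cluster held 93.8% of the tags of its locus, a run of same-strand clusters no more than 1000 bases from one to the next. On scaffold_14 from 1587536 to 1587582, plus strand, the downstream base led in both libraries, with 44 and 80 tags, while the upstream base, 39 bases away, had 14 and 70. The base next to it had 19 and 35, and at 5-base resolution the difference was -8.74 points, against -22.5 at single bases.

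The other 3 of these 6 had intervals that overlap. On scaffold_2 from 18241567 to 18241626, minus strand, the upstream base had 13 aposymbiotic and 44 symbiotic tags and the downstream base 49 and 59. On scaffold_8 from 10464388 to 10464554, minus strand, the upstream base had 19 and 40 tags and the downstream base 32 and 28. On scaffold_3 from 16334028 to 16334157, plus strand, the upstream base had 48 and 63 tags and the downstream base 24 and 74. Of these, the pairs on scaffold_8 and scaffold_3 had the opposite leading base in the libraries. With 2 bases on each side of a peak counted in, the differences on scaffold_2 and scaffold_8 were -14.4 and -8.26 points, against -21.8 and -21.6 at single bases.

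In the other direction the differences were smaller. The 6 clusters with the highest weaker-peak share in the aposymbiotic relative to the symbiotic library differed by 15.1 to 18.8 points, none had intervals apart, and in all 6 the downstream base led in the aposymbiotic and the upstream base in the symbiotic library. Their whole-cluster levels were 1.09-fold to 1.87-fold higher in the aposymbiotic library. The counting interval included 1 on scaffold_3 (0.994 to 1.47), scaffold_5 (0.841 to 1.41) and scaffold_1 (0.895 to 1.44). On scaffold_2, scaffold_9 and scaffold_6 it lay above 1. On scaffold_2 from 808793 to 808850, plus strand, the downstream base had 36 aposymbiotic and 24 symbiotic tags and the upstream base, 51 bases away, had 28 and 40. The downstream share was 56.2% (43.3 to 68.6) in aposymbiotic animals and 37.5% (25.7 to 50.5) in symbiotic animals. The neighbouring bases of the downstream peak had 18 and 14 tags before it and 21 and 18 after it. On scaffold_3 from 5423413 to 5423523, plus strand, with peaks 97 bases apart, the downstream base had 40 and 47 tags and the upstream base 34 and 81. The remaining 4 lay on scaffold_9 from 8671641, scaffold_6 from 7632598, scaffold_5 from 14919162 and scaffold_1 from 37837963, with shares of 53.2% to 55.4% in the aposymbiotic and 35.7% to 40.2% in the symbiotic library. With 2 bases on each side of a peak counted in, the difference was 9.01 points on scaffold_9, 8.81 on scaffold_6 and 7.22 on scaffold_1, against 17.5, 16.5 and 15.1 at single bases. On scaffold_5 it was 3.94 points with the symbiotic library thinned, against 15.7.

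Besides the clusters on scaffold_1 and scaffold_14, 4 more had intervals that did not overlap, named here after their values were seen. On scaffold_5 from 14114154 to 14114341, minus strand, the upstream base had 82 aposymbiotic and 54 symbiotic tags and the downstream base, 53 bases away, had 47 and 67. In CPM the upstream base had 38.4 and 13.8 and the downstream base 22.0 and 17.1, and the whole cluster was 1.99-fold higher in the aposymbiotic library (1.78 to 2.23). On scaffold_4 from 1888536 to 1888641, plus strand, the upstream base had 4 and 27 tags and the downstream base, 61 bases away, had 24 and 23. On scaffold_2 from 14473038 to 14473139, minus strand, the upstream base had 8 and 33 tags and the downstream base, 37 bases away, had 18 and 16. These 3 differed by -18.9, -39.7 and 36.6 points in the weaker peak's share at single bases, and by -9.93, -22.0 and 25.2 points when each peak was taken with 2 bases on each side. On scaffold_7 from 11322067 to 11322186, minus strand, the upstream base had 14 and 3 tags and the downstream base 9 and 23, the largest difference of all at 49.3 points. A base 2 before the upstream peak had 0 and 11 tags, and with 5-base windows the difference was 11.5 points.

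Ordered along the transcript, the upstream peak's median share of both peaks' tags was 50% (aposymbiotic) and 50.98% (symbiotic), with a median difference of -0.93 points. Its share was higher in the aposymbiotic library by at least 20 points in 14 clusters and lower in 26. In all 836 clusters 3.11% were higher and 4.31% lower, and in those without twin peaks 2.19% and 1.82%. Summed over all 566 clusters, upstream peaks took 49.5% (48.8 to 50.1) of the aposymbiotic and 50.7% (50.2 to 51.2) of the symbiotic peak tags. In the 875 other clusters the sums were 50.9% and 50.01%, the reverse order. The excess of lower upstream shares depended on how clusters were chosen and counted. With both libraries at equal weight in the choice of clusters, 17 of 292 clusters were higher and 22 lower. In 1 thinning of the symbiotic library to the aposymbiotic total, 229 clusters could be read, and 13 were higher and 13 lower. Across the 287 clusters the upstream shares of the libraries had Pearson's r = 0.36 and Spearman's rho = 0.41. Across the 98 clusters with at least 50 peak tags these were 0.57 and 0.59. For the weaker peak's share, r was -0.28 and rho -0.20 across the 287 clusters, and -0.01 and 0.06 across the 98. These are descriptions, in which the rule limits the range of the shares and clusters of 1 library share its depth.

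With each peak taken as 5 bases, more clusters could be read. Of the 566 clusters 467 had at least 20 tags in each library, with a median of 41 aposymbiotic and 71 symbiotic tags. The median absolute difference was 7.11 points. A difference of at least 20 points was found in 52 clusters (11.1%), against 6.69% of all 1256 clusters read in this way. Without twin peaks it was found in 4.06%. As at single bases, the rule sets the shares of these sets apart, and their difference was not tested. The upstream share was higher in the aposymbiotic library by at least 20 points in 16 clusters and lower in 36, against 2.55% and 4.14% of all 1256 and, without twin peaks, 2.03% higher and 2.03% lower. The median difference of the upstream share was -2.12 points in the twin-peak and -0.95 points in the 789 other clusters, the same sign in both sets. Intervals did not overlap in 15 clusters (3.21%), against 2.79% of all and 2.53% of those without twin peaks.

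As a group the clusters had close levels in both libraries, compared as CPM + 1. The median level was 30.6 CPM (aposymbiotic) and 29.3 CPM (symbiotic), and the median log2 ratio, aposymbiotic over symbiotic, was -0.00 for the 566 clusters and 0.02 for all 2427 clusters with at least 100 pooled tags below 500 CPM. By 2-fold or more, 14 clusters (2.47%) were higher in the aposymbiotic library and 12 (2.12%) were lower, against 2.72% higher and 1.11% lower of all 2427. In the other 875 clusters 3.66% were higher and 0.343% lower. The difference between these sets was not tested. No twin-peak cluster reached 4-fold. In whole animals, fewer cells of a type and less RNA per cell cannot be told apart. The log2 ratios of the stronger and the weaker base had the same sign in 170 of 287 clusters (59.2%), and r and rho across clusters were both 0.27. No such values are given for the other clusters, so these cannot be read as particular to twin-peak clusters. The points share the 2 libraries, and small counts add scatter.

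The 3 clusters highest in the aposymbiotic library were on scaffold_13, scaffold_11 and scaffold_7. The folds given for single clusters are plain CPM ratios with counting intervals, and their log2 ratios of CPM + 1 were 1.74, 1.27 and 1.20. On scaffold_13 from 6532556 to 6532651, minus strand, there were 143 aposymbiotic and 76 symbiotic tags, or 66.9 and 19.4 CPM, 3.46-fold higher (2.60 to 4.63). Its peaks had 17 and 13 tags at the upstream and 18 and 9 at the downstream base, so both were higher in CPM. On scaffold_11 from 2439823 to 2439981, plus strand, there were 173 and 129 tags, 2.46-fold higher (1.95 to 3.12), and on scaffold_7 from 14739244 to 14739353, plus strand, 88 and 68, 2.38-fold higher (1.71 to 3.31). The 3 lowest were on scaffold_16 and scaffold_7, with log2 ratios of CPM + 1 of -1.48, -1.28 and -1.26. On scaffold_16 from 1952328 to 1952427, plus strand, there were 17 and 94 tags, 3.01-fold lower (1.78 to 5.39), and the peaks had 1 and 12 tags upstream and 2 and 11 downstream. On the same scaffold from 5143842 to 5143931, minus strand, there were 21 and 99 tags, 2.57-fold lower (1.59 to 4.33), and on scaffold_7 from 14411584 to 14411687, minus strand, 23 and 107, 2.53-fold lower (1.60 to 4.17). In loci of at least 2 clusters, the 14 higher clusters lay at a median of 75% of the way from the 5′ to the 3′ end, counted in clusters, and the 12 lower ones at 50%, against 66.7% and 43.7% for all higher and lower clusters, so all clusters had the same order.

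The place of the twin-peak clusters among their neighbours was not used by the rule and resembled that of the other clusters. They fell in 463 loci, of which 375 held 1, 74 held 2, 13 held 3 and 1 held 4 of them, so 191 clusters share a locus with another. The locus had a median of 7 clusters in both sets. The twin-peak cluster was the strongest of its locus in 42.4% (38.3 to 46.6), against 43.1% (39.8 to 46.4) of the other clusters. It was nearest the 5′ end in 10.6% (8.19 to 13.4), against 13.0% (10.9 to 15.4), and nearest the 3′ end in 12.01% (9.45 to 15.0), against 13.0% (10.9 to 15.4). It stood alone in 9 cases. The median share of the locus' tags was 27.4% against 27.7%. Twin-peak clusters were found on 26 scaffolds. On the 14 scaffolds with at least 20 clusters within the bounds they made up 34.0% to 48.9% of these, with the lowest share on scaffold_6 (35 of 103) and the highest on scaffold_5 (45 of 92).

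The authors' deposited cluster lists did not always keep the peaks together. Both peak bases lay in 1 deposited cluster in 419 of 566 cases (74.0%) in the aposymbiotic list and in 504 (89.0%) in the symbiotic list. They were split over 2 deposited clusters in 143 and 62 cases. In 4 aposymbiotic cases 1 peak was in no deposited cluster, against 0 symbiotic cases. One pair can therefore count as 2 clusters in one list and as 1 in the other, and the aposymbiotic library has fewer tags. No share of the other clusters is given beside these counts, so they do not show a trait particular to twin-peak clusters. The listed strand was opposite to that of the tags in 4 aposymbiotic and 3 symbiotic cases.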

How the data were processed

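Per the labels' protocols, 1 CAGE library was made from aposymbiotic and 1 from symbiotic animals. Tools listed in the submitters' processing notes are STAR 2.7.11b and fastp 1.1.0. For the genome build, the tag counter and the handling of duplicates, the labels and files say nothing. The authors deposited raw tag counts per base and strand, and raw tag counts per cluster, with no normalization. Joining positions with at most 20 bases between them, without regard to strand, rebuilt all 23776 aposymbiotic and 39309 symbiotic deposited clusters.

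Here tags of both libraries were pooled and joined on each strand, width was the distance of the 10th and 90th percentile plus 1, and ties went to the base nearest the 5′ end. CPM used each library's total tags, and pooled CPM the pooled total. For log2 ratios and calls 1 CPM was added, and none for the folds of named clusters. Regions were named by rule: the 6 largest share differences in each direction with at least 50 peak tags, the 5 with most tags, the 3 widest and narrowest, the 3 on each side of the ratio limit and the 3 largest level ratios in each direction. The clusters, rules and lists were chosen with earlier results of these data known. The clusters just under the ratio limit (0.3 to 0.5) and the list of clusters with separate intervals were added after the data were seen. The computation was tested on simulated clusters with more tags than most clusters here and with peak ratios away from the 0.5 limit. That test does not cover low counts or ratios near the limit. Scaffold coordinates are counted from 1. Tools were R 4.3.3 with edgeR 4.0.16 (TMM factors only) and Python 3.11.15 with scipy 1.17.1, pandas 2.3.3, numpy 2.4.6 and matplotlib 3.10.9. Sequence at the peaks was planned and not run, since no genome was used here.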

Additional observations from a re-analysis of the deposited data

Results flagged for a closer look

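Tags on the strand opposite to a twin-peak cluster lay outside the counts compared. There were 5 such tags in the aposymbiotic library, in 4 clusters, and 11 in the symbiotic library, in 8 clusters, each above the 3 tags that a count of 0 allows. They made up 0.00686% and 0.00892% of the tags of both strands within these clusters.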

How the results depend on the processing

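No paired analysis was possible because 1 library stands for each group. Of 70 values recomputed for the comparisons, 29 moved beyond the limits set for them. The number of twin-peak clusters was 311 with the weaker peak at 0.7 of the top, 1330 with at least 50 pooled tags and 251 with at least 200. With both libraries at equal weight 558 clusters were chosen, of which 513 were the same clusters and 440 also had the same 2 bases in the same order.

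With at least 1 peak tag, the weaker share was higher in the aposymbiotic library by 20 points in 71 clusters and lower in 79, the upstream share higher in 70 and lower in 80, and the order opposite in 195. With at least 50 peak tags these counts were 0 and 7, 2 and 5, and 24. In 1 thinning of the symbiotic library to the aposymbiotic total, 229 clusters could be read. Of these, 9 weaker shares were higher and 17 lower, and 13 upstream shares were higher and 13 lower. With 5-base windows 29 weaker shares of 467 clusters were higher and 23 lower, against 18 and 22 of 287 clusters at single bases. Windows gave 15 clusters with separate intervals, and 99% intervals at single bases gave 1. Counts that moved between settings thus also rest on different sets of clusters. A limit of 10 points gave 59 higher and 64 lower, and 30 points gave 5 and 3. Adding 5 CPM left 5 clusters lower in level, and a 1.5-fold limit gave 75 higher and 53 lower. Exactly 2 strong bases over 20 bases apart were found in 85.7% of clusters with at least 200 pooled tags. With loci joined within 500 bases, 48.1% were the strongest and 15.9% nearest the 5′ end, and 14.8% were nearest the 5′ end when clusters of at least 10 tags made up the loci. Of 42 values of 21 named clusters, 15 in 14 clusters were over 1.5 times larger or smaller than at single bases and full depth, and 0 had the other sign. Of these, 2 left the counting interval: scaffold_1 from 14894777 was -11.7 points when thinned and scaffold_7 from 11322067 was 11.5 points with windows. The cause was not tested. Counts per peak limit all single shares, and most clusters that differed by 20 points had overlapping intervals.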
